A study of Mus musculus with 36 samples.

Results

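S100a5, Kirrel2, Kirrel3, Pcp4l1 and Lrrc3b are 5 mouse genes whose RNA level in olfactory sensory neurons (OSNs) has been tied to odor-evoked activity. They were chosen by name out of the 24574 genes listed in all 3 tissues of the study, and the FPKM of all transcripts of a gene were summed (FPKM, a fragment count scaled by transcript length and library size). All 5 were found and all 5 passed the filter of a mean of at least 0.5 FPKM, and each was above 0 in 12 of 12 libraries of every tissue. The libraries hold no recording of neuronal activity and no odor-deprived group, so the link to activity is the reason for the choice and was not measured here.

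RNA was sequenced from the main olfactory epithelium (MOE), the vomeronasal organ (VNO) and the olfactory bulb (OB) of C57BL/6 mice, in 36 libraries. Mice were caged with their own sex only (sex-separated females, SF, and males, SM) or with both sexes in 1 cage (sex-combined females, CF, and males, CM). This housing of 4 animals per cage began at weaning, at 3 weeks of age, and lasted until 6 months. There were 3 libraries per tissue and group, each from RNA pooled over mice (2 mice per pool by the labels, while the study's methods give another number), so the spread between libraries is a spread between pools, and n counts libraries. The whole tissues hold many cell types, and fewer neurons and less RNA per neuron cannot be told apart in such samples.

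In an OSN, an odorant that binds the receptor raises cAMP through the G protein subunit Gnal and the adenylyl cyclase Adcy3. The cAMP opens a cation channel that contains Cnga2, calcium enters, and the axon carries the spikes to the OB. Calcium and cAMP also reach the nucleus, where they alter transcription. The VNO uses other neurons (VSNs), which signal through the channel Trpc2. Among the 5 genes, S100a5 encodes a calcium-binding protein of the S100 family. Kirrel2 and Kirrel3 encode adhesion molecules of the immunoglobulin superfamily that bind their own kind on neighbouring axons. In OSNs the pair is known for opposite responses to activity, with Kirrel2 raised and Kirrel3 lowered. Pcp4l1 encodes a small protein related to the calmodulin regulator Pcp4, and Lrrc3b encodes a membrane protein with leucine-rich repeats.

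The genes lie on 5 chromosomes in the mm9 coordinates of the files. S100a5 spans chr3:90412443-90415702, Kirrel2 chr7:31232784-31242534, Kirrel3 chr9:34296315-34843892, Pcp4l1 chr1:173103394-173126399 and Lrrc3b chr14:16190030-16271501. Kirrel3 has 5 listed transcripts and the other members have 1 each. The locus of Lrrc3b overlaps that of B230110C06Rik, which averaged 1.11 FPKM in MOE, while the loci of the other 4 members overlap no other listed gene. The 250 bases before the start of transcription were taken from the RefSeq promoter table of build GRCm38.p6, in which 4 of the 5 members were found. S100a5 and Pcp4l1 are shown because they are the 2 members of highest mean level in MOE, and the capitals mark the letters of a CCAAT box on the opposite strand (ATTGG):
S100a5, plus strand of chr3:90608272-90608521: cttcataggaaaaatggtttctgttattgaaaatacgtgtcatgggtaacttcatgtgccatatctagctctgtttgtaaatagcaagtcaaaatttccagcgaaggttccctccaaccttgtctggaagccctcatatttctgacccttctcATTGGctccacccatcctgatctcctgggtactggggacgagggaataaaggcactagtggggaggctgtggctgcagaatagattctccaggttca
Pcp4l1, minus strand of chr1:171196269-171196518: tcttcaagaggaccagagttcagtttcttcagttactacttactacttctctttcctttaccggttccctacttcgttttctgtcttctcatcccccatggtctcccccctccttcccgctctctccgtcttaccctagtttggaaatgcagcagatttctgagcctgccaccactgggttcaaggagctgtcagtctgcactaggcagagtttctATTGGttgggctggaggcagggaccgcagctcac
The match began 97 bases before the start of S100a5 and 34 bases before that of Pcp4l1, and the letters CCAAT, on either strand, were present in 33.8% of the 32851 promoters of this length. This box was looked for after the sequences had been read. The 250 bases of Kirrel2 and Lrrc3b held none. The cAMP response element (TGACGTCA, in 1.55% of all promoters) and its core (TGACG, 17.8%) were not found in these windows of the 4 members. The AP-1 site (TGANTCA, 6.75%), the Olf/Ebf site (0.779%), the homeodomain site (TAATTA, 4.84%) and, on the gene strand, the TATA box (TATAAA, 7.59%) were not found there either, with both strands searched for all but the last. The core TGACG is part of the full element.

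Estimated from the confidence limits in the files, the listed transcripts held between 3016524 and 5902159 fragments per library in MOE, between 3373400 and 6779893 in VNO, and between 3592962 and 6437263 in OB. The defining markers matched the labelled tissues. Cnga2 averaged 213 FPKM in MOE but 2.18 in VNO and 0.602 in OB. Trpc2 averaged 43.0 FPKM in VNO, against 0.938 in MOE and 0.199 in OB. Gad1, a marker of bulb interneurons, averaged 180 FPKM in OB, against 0.236 in MOE and 1.36 in VNO. The third CM library of MOE stood apart with the fewest estimated fragments (3016524) and 638 FPKM of Omp, the marker of mature OSNs. By the study's own figures it had the most read pairs of the MOE libraries but the lowest share of aligned reads. The second SF library followed with 758 FPKM of Omp. The other 10 MOE libraries lay between 905 and 1130 FPKM of Omp. Results in MOE are therefore also given without these 2 libraries.

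The members differed far more between tissues, by up to 6.64 on the log2 scale, than between sexes or housings. S100a5, Kirrel2 and Lrrc3b were highest in MOE, Kirrel3 was highest in OB, and Pcp4l1 was lowest in VNO. Differences between tissues were tested with limma on log2(FPKM + 0.5) over the 36 libraries and 12 groups, with p adjusted by the Benjamini-Hochberg method over 14627 genes and called under 0.05. In MOE against VNO, 4 of the 5 members passed, all higher in MOE, where 82.6% of all genes passed (48.6% higher and 34% lower in MOE). All 5 passed in MOE against OB, 3 higher and 2 lower in MOE, where 85.1% of all genes did (45.7% higher and 39.3% lower). All 5 passed in VNO against OB, 1 higher and 4 lower in VNO, where 85.8% of all genes did (37.8% higher and 48% lower). The members' share lies near that of all genes. Tissues did not overlap in 34.8% of genes for MOE and VNO, 51.2% for MOE and OB, and 62.6% for VNO and OB.

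S100a5 was among the most abundant RNAs of MOE, ranking 34 of 24634 genes by mean FPKM. Its lowest, median and highest levels over 12 libraries were 834, 1322 and 1640 FPKM in MOE, with a mean of 1325 ± 232 (SD, n = 12). The same values were 5.59, 12.8 and 26.3 FPKM in VNO (mean 13.8 ± 6.19), against 70.2, 83.4 and 105 FPKM in OB (mean 84.9 ± 11.2). The 3 ranges do not overlap, and OB held 6.40% of the MOE level while VNO held 1.04%. On the log2(FPKM + 0.5) scale the difference of MOE from VNO was 6.64 ± 0.17 (SE, limma adjusted p = 1.24e-24), and that of MOE from OB was 3.95 ± 0.17 (adjusted p = 2.13e-19). VNO was lower than OB by 2.69 ± 0.17 on this scale (adjusted p = 3.29e-15), that is, 6.16 times less by the means.

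Kirrel2 was the member with the steepest fall from the epithelium to the bulb. Its lowest, median and highest levels were 42.2, 75.7 and 133 FPKM in MOE, with a mean of 79.5 ± 22.9. In VNO they were 11, 16.7 and 20.2 FPKM (mean 16.3 ± 3.12), and in OB 0.530, 0.693 and 1.11 FPKM (mean 0.692 ± 0.155). The 3 ranges do not overlap, and OB held 0.871% of the MOE level. MOE exceeded VNO by 2.22 ± 0.12 (adjusted p = 2.62e-16) and OB by 6.03 ± 0.12 (adjusted p = 6.68e-28) on the log2 scale, and VNO exceeded OB by 3.81 ± 0.12 (adjusted p = 1.02e-22).

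Kirrel3 ran the other way. It reached 5.76, 6.60 and 6.99 FPKM (lowest, median and highest) in OB, with a mean of 6.56 ± 0.376. The values were 1.76, 2.77 and 3.31 FPKM in MOE (mean 2.73 ± 0.512) and 2.09, 2.5 and 4.0 FPKM in VNO (mean 2.74 ± 0.544). Every OB library was above every library of the other 2 tissues, and MOE and VNO overlapped. OB exceeded MOE by 2.40 times and VNO by 2.40 times (log2 differences of MOE from OB -1.15 ± 0.08, adjusted p = 9.79e-14, and of VNO from OB -1.14 ± 0.08, adjusted p = 1.08e-13). Between MOE and VNO the log2 difference was -0.01, with a 95% confidence interval from -0.18 to 0.16 (adjusted p = 0.954). With FPKM rescaled to a common upper quartile, that difference was -0.26 and passed (adjusted p = 0.00135), and the median over all genes shifted by -0.23 under this scaling.

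The ratio of Kirrel2 to Kirrel3 within a library put the 2 adhesion molecules side by side on a scale into which library size does not enter. It was 29.3 ± 6.76 (SD, n = 12) in MOE, falling to 6.02 ± 0.956 in VNO and 0.105 ± 0.0218 in OB. The ratio lay between 21.1 and 41.5 over the MOE libraries, between 4.75 and 7.58 over the VNO libraries, and between 0.0802 and 0.159 over the OB libraries. Kirrel2 was thus the more abundant of the pair in every epithelial library and Kirrel3 in every bulb library.

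Pcp4l1 differed little between MOE and OB and was lower in VNO. Its lowest, median and highest levels were 69.2, 97.3 and 130 FPKM in MOE (mean 99.1 ± 18.8). They were 39.5, 47.3 and 62.0 FPKM in VNO (mean 48.9 ± 6.57) but 94.6, 114 and 132 FPKM in OB (mean 114 ± 9.82). All VNO libraries lay below all others, while MOE and OB overlapped. MOE exceeded VNO by 1.0 ± 0.09 on the log2 scale (adjusted p = 3.68e-11), and VNO was lower than OB, with a difference of -1.22 ± 0.09 (adjusted p = 2.28e-13). The difference of MOE from OB was -0.22 ± 0.09 (adjusted p = 0.0273), and it did not pass without SF library 2, SM library 3 or CM library 3 of MOE or CM library 3 of OB (adjusted p between 0.0582 and 0.0720).

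Lrrc3b was highest in MOE. The lowest, median and highest levels in MOE were 12.7, 18.0 and 34.0 FPKM, with a mean of 19.5 ± 5.61. In VNO they were 0.436, 0.932 and 1.12 FPKM (mean 0.815 ± 0.248) and in OB 1.36, 1.90 and 2.67 FPKM (mean 1.89 ± 0.366). The 3 ranges do not overlap, with VNO the lowest. MOE exceeded VNO by 3.91 ± 0.11 (adjusted p = 2.95e-23) and OB by 3.04 ± 0.11 (adjusted p = 5.56e-21) on the log2 scale, and VNO was lower than OB (-0.87 ± 0.11, adjusted p = 3.39e-08). The VNO values rest on few fragments, an estimated 8 to 30 per library.

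**Figure D1:**
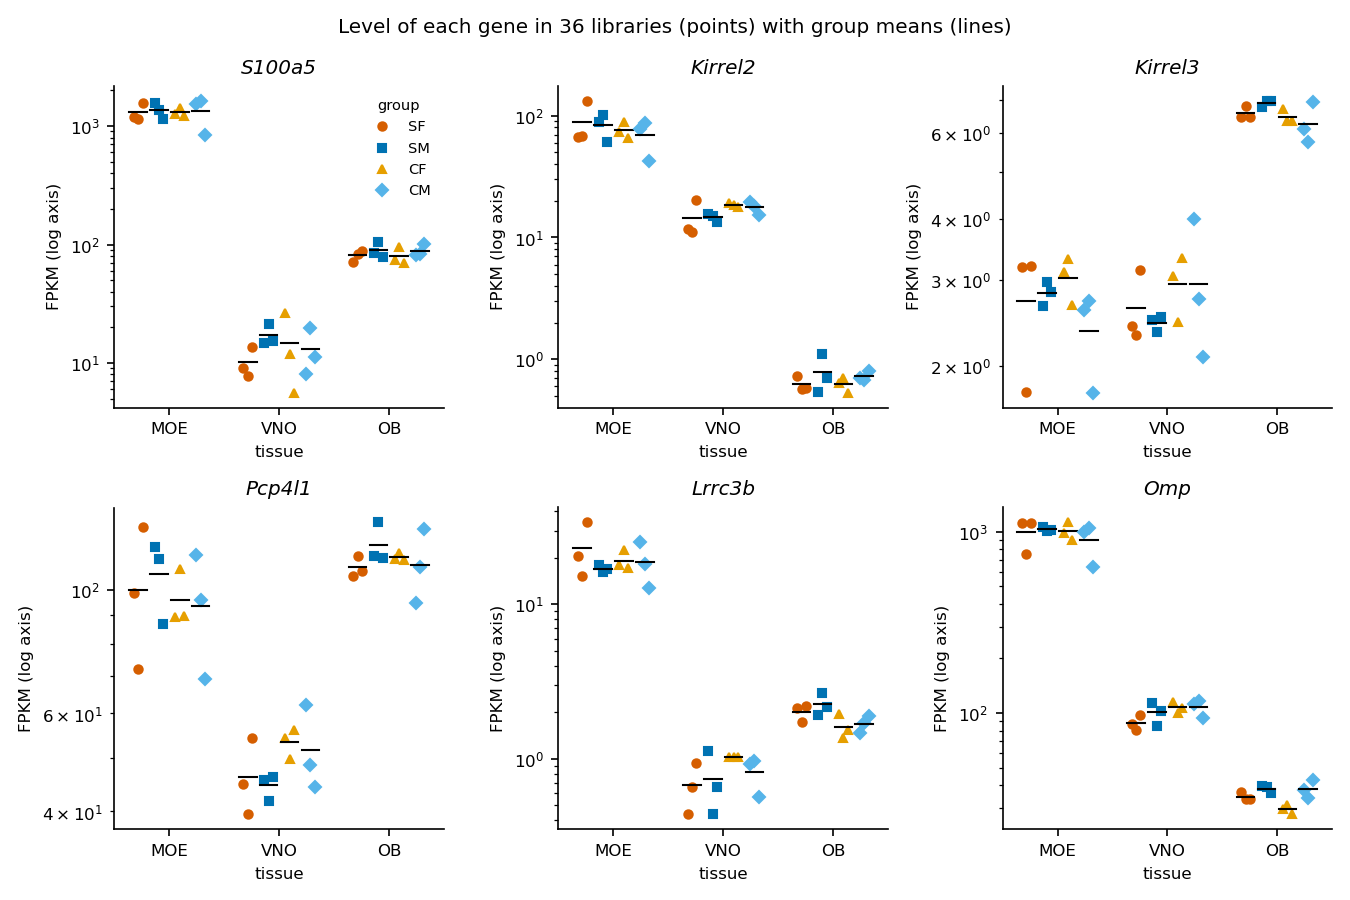
FPKM (log axis) of the 5 genes and of Omp in 36 libraries, by tissue; points are libraries, coloured and shaped by group (SF, SM, CF, CM), and lines are means of 3 libraries. S100a5 runs from 834 to 1640 FPKM in MOE and from 5.59 to 26.3 in VNO, and Kirrel3 is highest in OB. Groups within a tissue mostly overlap, and S100a5 in VNO spreads the most of the 5 genes.

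Ordered by mean FPKM, a scale that accounts for transcript length, the MOE libraries had S100a5 first, then Pcp4l1, Kirrel2, Lrrc3b and Kirrel3. Pcp4l1 and Kirrel2 were the neighbours whose ranges overlapped, with Pcp4l1 higher in 11 of 12 libraries. In VNO the order was Pcp4l1, Kirrel2, S100a5, Kirrel3 and Lrrc3b. There Kirrel2 was above S100a5 in 8 of 12 libraries only, and their ranges overlapped. In OB the order was Pcp4l1, S100a5, Kirrel3, Lrrc3b and Kirrel2. The ranges of Pcp4l1 and S100a5 overlapped, but Pcp4l1 was the higher of the pair in 12 of 12 libraries.

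The members' levels relative to Omp differed between tissues. Omp fell from a mean of 983 ± 149 FPKM in MOE to 101 ± 12.5 (VNO) and 35.1 ± 4.38 (OB), so that VNO held 10.3% and OB 3.57% of the MOE level. The within-library ratio of S100a5 to Omp was 1.35 ± 0.154 in MOE, against 0.136 ± 0.0582 in VNO and 2.43 ± 0.306 in OB. The ratio of Pcp4l1 to Omp rose from 0.101 ± 0.0113 (MOE) through 0.485 ± 0.0487 (VNO) to 3.29 ± 0.449 (OB). For Kirrel2 the ratio to Omp was highest in VNO, at 0.161 ± 0.0233, with 0.0804 ± 0.0168 for MOE and 0.0197 ± 0.00354 for OB. Relative to Omp, S100a5 was thus lowest in VNO and Pcp4l1 was highest in OB.

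The level of S100a5 in VNO varied more than that of any other member in any tissue, by 4.70 times between the lowest and the highest library. By group, the VNO libraries read 9.15, 7.82 and 13.6 FPKM (SF), 14.8, 21.4 and 15.5 (SM), 26.3, 12 and 5.59 (CF), and 8.11, 19.8 and 11.1 (CM). Cnga2, the channel subunit of OSNs, read 1.33, 0.880 and 1.31 FPKM in the same SF libraries, 3.72, 3.31 and 2.80 in SM, 3.30, 2.15 and 1.33 in CF, and 0.935, 3.01 and 2.04 in CM. The libraries high in one gene were high in the other. Over the 12 VNO libraries, Pearson's r of S100a5 with Cnga2 was 0.828 (permutation p = 0.00113, adjusted over the 5 members 0.00565) and Spearman's rho was 0.797 (p = 0.00303, adjusted 0.0152). It was 0.785 (permutation p = 0.00559) without the 2 libraries farthest from the median of Cnga2, and 0.857 (permutation p = 0.00046) on deviations from group means. The other 4 members had r between -0.35 and 0.15 with Cnga2 in VNO (adjusted p of 0.67 or more). This relation was looked for after the levels had been seen.

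S100a5 and Cnga2 also stood at nearly the same share of their MOE level in VNO, 1.04% and 1.02%. Cnga2 was the lowest of the 7 mature OSN markers by this share. The median of these markers was 5.41% and the highest was 21.8% (Rtp1). The within-library ratio of S100a5 to Cnga2 was 6.25 ± 0.723 in MOE and 6.72 ± 1.95 in VNO, but 151 ± 46.9 in OB. None of the 7 markers of mature OSNs was at 0 in every VNO library, and they had a summed level of 104 to 159 FPKM against 1201 to 2027 FPKM in MOE. Omp, which VSNs also express, made up most of that sum. By group the VNO sums were 104 to 125 FPKM (SF), 121 to 159 (SM), 135 to 159 (CF) and 126 to 155 (CM). The part of OSN RNA in the VNO level of S100a5 was not tested.

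**Figure D2:**
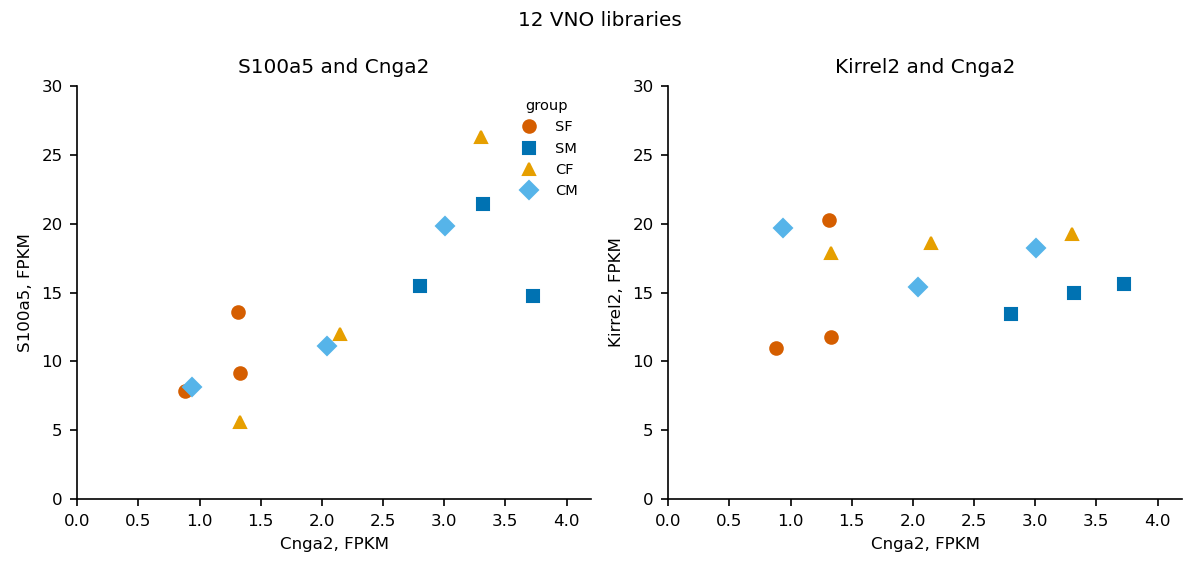
FPKM of S100a5 (left) and Kirrel2 (right) against FPKM of Cnga2 in the 12 VNO libraries, with colour and shape for the group. S100a5 rises with Cnga2 (Pearson's r on the log2 scale 0.828), and Kirrel2 shows no such relation (0.147).

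Sex and housing were then compared within each tissue, to ask whether long housing with the opposite sex went with a change in these genes. The study's aim was exposure to odors of the opposite sex. By its methods, however, mixed cages also produced litters, which were killed soon after birth to limit pup odors. The housing comparison therefore also takes in mating, pregnancy in CF and brief contact with pups. Sex-separated cages also stood in rooms with their own sex only. Room thus cannot be told apart from housing or, between SF and SM, from sex. The part of odors alone was not tested. Per tissue, 4 groups were compared in 4 pairs (SF with SM, CF with CM, CF with SF and CM with SM), by housing over both sexes, and by the interaction of sex and housing. These 18 comparisons of 5 members gave 90 tests in limma, fitted per tissue over 12 libraries. None of the 90 passed an adjusted p under 0.05 in limma, and 4 had an unadjusted p under 0.05. Few of all genes passed either. In MOE 0.102% passed for SF against SM, 0.0436% for CF against CM, 0.0509% for CF against SF, 0.0654% for CM against SM, 0.102% for housing and 0.0363% for the interaction. In VNO the shares were 0.0722% for SF against SM, 0.0433% for CF against CM and 0% for the other 4 comparisons. In OB they were 0.0391% for SF against SM, 0.0469% for CF against CM, 0% for CM against SM, and 0.00782% for each of CF against SF, housing and the interaction.

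At an unadjusted p under 0.05, 0 of the 30 member tests stood in MOE, 2 in VNO (both of Kirrel2) and 2 in OB (both of Lrrc3b). Over all genes in MOE, 4.16% stood there for SF against SM, 1.75% for CF against CM, 2.04% for CF against SF, 6.94% for CM against SM, 3.31% for housing and 4.59% for the interaction. In VNO these shares were 8.8%, 3.94%, 11%, 2.33%, 7.57% and 5.26% in the same order, and in OB 4.59%, 5.69%, 2.8%, 3.4%, 2.27% and 4.13%. Both sex-combined groups lay wholly apart from both sex-separated groups for none of the members, and for 0.269% (MOE), 0.318% (VNO) and 0.0156% (OB) of all genes. Pairs of groups did not overlap in 0 of 20 member cases in MOE, where this held for 14.2% of all genes (SF against SM), 4.14% (CF against CM), 10.4% (CF against SF) and 13.4% (CM against SM). The cases in VNO and OB are given with their values by gene, and CM and SM in VNO (7.94% of all genes) and SF and SM (8.6%), CF and CM (10.2%) and CF and SF (5.86%) in OB held none.

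In MOE the log2 differences of the 30 tests ran from -0.40 to 0.37, and the lowest unadjusted p was 0.128. S100a5 read 1198, 1154 and 1561 FPKM in the SF libraries, 1569, 1368 and 1145 in SM, 1276, 1413 and 1220 in CF, and 1521, 1640 and 834 in CM. All 4 groups overlap, and the lowest and the highest value are both from CM. Its differences between pairs of groups lay between -0.08 and 0.03, with confidence bounds from -0.73 to 0.67. Without SF library 2 and CM library 3, a fit added after the data had been seen, the differences turned in sign in all 4 pairs. They then ran from -0.28 ± 0.19 for CF from CM (adjusted p = 0.491) to 0.23 ± 0.19 for CM from SM (adjusted p = 0.598), and none passed.

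Kirrel2 in MOE read 67.1, 68.3 and 133 FPKM in the SF libraries, 89.2, 101 and 60.8 in SM, 73.7, 88.6 and 65.6 in CF, and 77.6, 86.8 and 42.2 in CM. The groups overlap, and SF library 3 stands highest. Kirrel3 read 3.18, 1.77 and 3.20 FPKM in SF, 2.65, 2.97 and 2.84 in SM, 3.12, 3.31 and 2.66 in CF, and 2.60, 2.71 and 1.76 in CM. Its lowest values are in SF library 2 and CM library 3. The housing difference over both sexes was -0.24 (95% confidence interval -0.71 to 0.23) for Kirrel2 and -0.03 (-0.33 to 0.26) for Kirrel3. 

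Pcp4l1 in MOE read 98.6, 72 and 130 FPKM in the SF libraries, 119, 114 and 86.9 in SM, 89.2, 109 and 89.9 in CF, and 116, 96.0 and 69.2 in CM. Lrrc3b read 20.5, 15.3 and 34.0 FPKM in SF, 18.1, 16.1 and 16.8 in SM, 17.9, 22.4 and 17.1 in CF, and 25.1, 18.2 and 12.7 in CM. For both genes the groups overlap, the highest value is that of SF library 3 and the lowest that of CM library 3. The housing difference was -0.11 (-0.50 to 0.27) for Pcp4l1 and -0.06 (-0.46 to 0.34) for Lrrc3b. Without SF library 2 and CM library 3, still none of the members passed in MOE. The difference of SF from SM in Lrrc3b was then 0.62 ± 0.20 (adjusted p = 0.214), against 0.37 over all libraries. The value farthest from 0 was then the interaction of Lrrc3b (0.79 ± 0.29, adjusted p = 0.123).

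**Figure D3:**
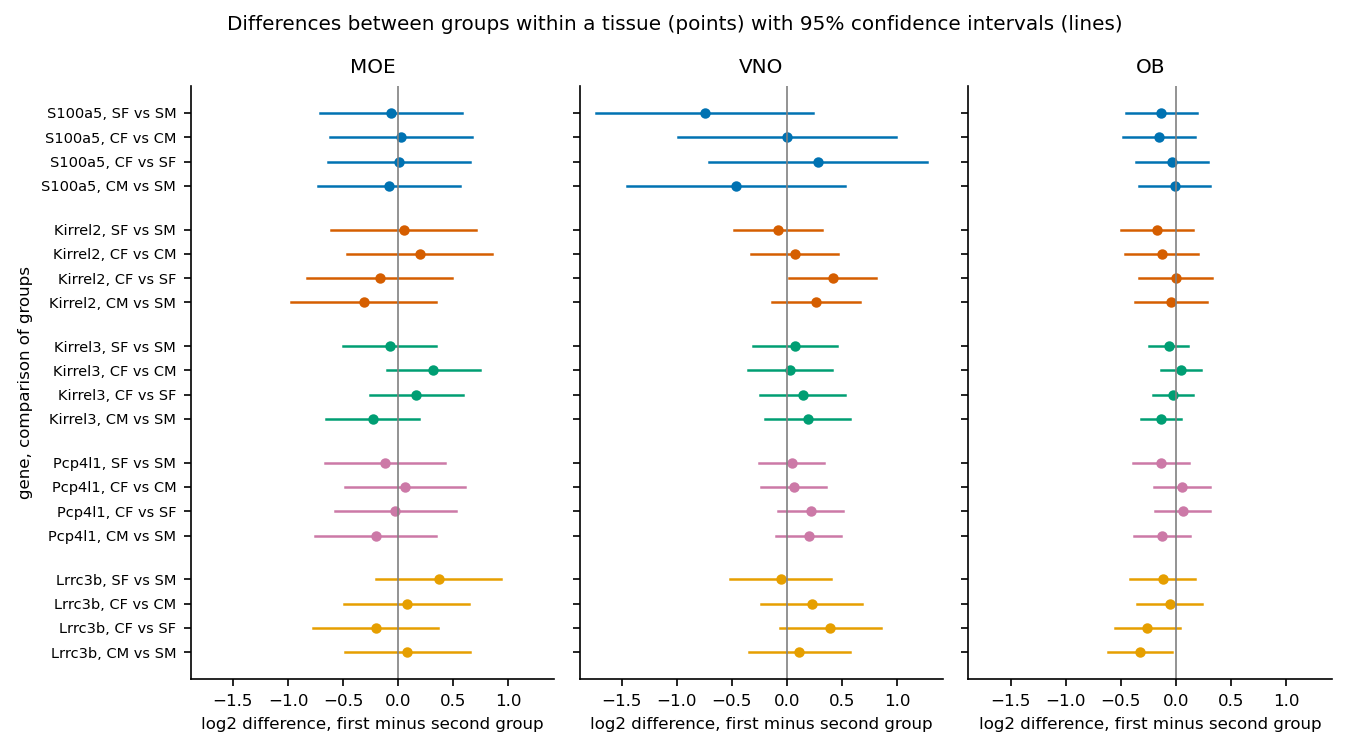
Differences in log2(FPKM + 0.5) between pairs of groups (first minus second) for the 5 genes in MOE, VNO and OB; points are limma estimates from 3 libraries per group and lines are 95% confidence intervals. All but 2 of the 60 intervals cross 0, and the widest are those of S100a5 in VNO.

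In VNO, Kirrel2 had the smallest p of the members, for housing. It read 11.8, 11 and 20.2 FPKM in the SF libraries, 15.6, 15 and 13.4 in SM, 19.3, 18.6 and 17.9 in CF, and 19.7, 18.3 and 15.4 in CM. Most sex-combined libraries lie at the upper end. SF library 3 is the highest of all, however, and CM library 3 (15.4) lies below SM library 1 (15.6), so the housings overlap. The difference of CF from SF was 0.41 ± 0.18, with an interval from 0.02 to 0.81 (adjusted p = 0.445). It was 0.26 without SF library 2 and 0.68 without SF library 3 (adjusted p of 0.134 or more). The housing difference over both sexes was 0.34 ± 0.13, with an interval from 0.06 to 0.62 (adjusted p = 0.629). RNA integrity in VNO, as the study lists it, also ran with housing. All sex-separated VNO libraries but SM library 3 had higher integrity than every sex-combined one. The part of RNA integrity in the difference of Kirrel2 was not tested. With the level of sensory neuron markers (Trpc2, Gnai2, Gnao1 and Omp) as a covariate, the difference of CF from SF was 0.12.

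Lrrc3b in VNO read 0.436, 0.656 and 0.944 FPKM in the SF libraries, 1.12, 0.438 and 0.658 in SM, 1.02, 1.03 and 1.02 in CF, and 0.920, 0.970 and 0.566 in CM. The CF libraries were closely spaced and lay above all SF and all CM libraries, 2 of the 4 cases among 60 pairs of groups in which groups did not overlap. Of all genes, 15.6% did not overlap between CF and SF and 8.7% between CF and CM. The difference of CF from SF was 0.39, with an interval from -0.07 to 0.85 (adjusted p = 0.491), at a level of 8 to 30 estimated fragments per library.

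S100a5 in VNO, with the values given above, was lower in every SF than in every SM library, another case without overlap (14.5% of all genes). The difference was -0.75 ± 0.45, with an interval from -1.73 to 0.24 (adjusted p = 0.623). Cnga2 separated the same groups the same way, at most 1.33 FPKM in SF and at least 2.80 in SM. Some markers of other cells also had an unadjusted p under 0.05 between these groups, where 8.8% of all genes stood. The summed level of 4 cartilage and bone markers was 109 to 152 FPKM in SF and 81.7 to 101 in SM, with 3 of 4 genes at an unadjusted p under 0.05. That of 5 sustentacular markers was 333 to 382 and 356 to 438 FPKM (2 of 4 tested), and that of 4 neutrophil markers 29.0 to 53.3 and 45.5 to 56.3 FPKM (2 of 4). The sustentacular and neutrophil sums overlapped between the groups. Among the 7 mature OSN markers, 5 stood at that threshold, and no gene of these 4 lists was at 0 in every library. Of 3 tested genes of the bulb interneuron list, 1 was lower in SF at an adjusted p under 0.05 in limma, where 0.0722% of all genes passed. The part of the cells that these lists mark in the difference of S100a5 was not tested. With Cnga2 as a covariate, a fit added after the data had been seen, the difference of S100a5 was 0.77 ± 0.38 and did not pass (adjusted p = 1.0). Kirrel3 and Pcp4l1 overlapped between all pairs of groups in VNO. The levels of Kirrel3 lay between 2.09 and 4.0 FPKM and those of Pcp4l1 between 39.5 and 62.0 FPKM, with housing differences of 0.16 (-0.11 to 0.44) and 0.21 (-0.00 to 0.41).

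In OB, Lrrc3b had the smallest p of the members, for housing, at a level of 32 to 70 estimated fragments per library. It read 2.12, 1.74 and 2.2 FPKM in the SF libraries, 1.92, 2.67 and 2.15 in SM, 1.95, 1.36 and 1.53 in CF, and 1.48, 1.71 and 1.88 in CM. Every CM library lay below every SM library, the last case without overlap (7.82% of all genes), while CF and SF overlapped. The difference of CM from SM was -0.32 ± 0.14, with an interval from -0.62 to -0.03 (adjusted p = 1). Over both sexes the housing difference was -0.29 ± 0.10, with an interval from -0.50 to -0.08 (adjusted p = 1.0). Adjusted over all genes, neither passed. Without SM library 2 the difference of CM from SM was -0.22 ± 0.14. Leaving out 1 library at a time moved the housing difference between -0.35 and -0.24.

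None of the other 4 members passed in OB. Kirrel3 lay between 5.76 and 6.99 FPKM, a coefficient of variation of 5.73%, and its difference of CM from SM was -0.13 (-0.31 to 0.05). S100a5 lay between 70.2 and 105 FPKM and Pcp4l1 between 94.6 and 132 FPKM, and none of their differences between pairs of groups passed (log2 differences between -0.15 and 0.06). Kirrel2 lay between 0.530 and 1.11 FPKM, a coefficient of variation of 22.4%, on an estimated 17 to 58 fragments per library. The housing difference was also compared between tissues, after the data had been seen, and 0 of 5 members passed in any of the 3 pairs of tissues. The smallest p values were 0.0234 for Lrrc3b in VNO against OB (adjusted p = 1) and 0.0247 for Kirrel2 in MOE against VNO (adjusted p = 0.446). Over all genes 0%, 0.0684% and 0.0684% passed in VNO against OB, MOE against VNO and MOE against OB, and 2.53%, 11.1% and 3.81% had an unadjusted p under 0.05.

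Within MOE the levels of most members were correlated from library to library, as were those of many other genes. Of the 10 pairs of members, 9 had correlated levels over the 12 libraries, with Pearson's r between 0.619 and 0.861 (permutation test with 100000 resamples, adjusted over 15 relations). On deviations from group means all 10 did. S100a5 and Kirrel2 had the highest r (0.861, p = 0.00048, adjusted p = 0.00201, rho 0.825), followed by Kirrel2 and Pcp4l1 (0.850, adjusted p = 0.00201, rho 0.839). S100a5 and Kirrel3 had the lowest (0.591, adjusted p = 0.0523, rho 0.266). Among 12092 genes, between 1.31% and 65.9% (median 23.1%) had an r with a member at least as high as that of another member. For S100a5 this share was 3.46% at the r of Kirrel2 and 51.3% at that of Lrrc3b, so the correlation of the members is not particular to them.

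Single libraries and the scaling moved these correlations. All 5 members, and Omp, were lowest in CM library 3, and 3 of the 5 were highest in SF library 3. Without CM library 3, 4 of the 10 pairs passed, and after quantile normalization or upper quartile scaling 0 of 10 did. All 5 members also correlated with Omp (r between 0.687 and 0.919, adjusted p between 0.00201 and 0.0267). Without SF library 2 and CM library 3, r lay between 0.349 and 0.596, with permutation p of 0.0669 or more. These 2 libraries hold the lowest Omp levels, so leaving them out also narrows the range of Omp. By Spearman's rho over all 12 libraries, 3 of the 5 relations with Omp passed, those of Kirrel3 (0.769, adjusted p = 0.0154), Lrrc3b (0.748, adjusted p = 0.0154) and Pcp4l1 (0.692, adjusted p = 0.0321), while S100a5 (0.566) and Kirrel2 (0.601) did not. On deviations from group means, all 12 libraries included, r of the 5 members with Omp lay between 0.712 and 0.935 (permutation test, adjusted p of 0.00945 or less). On these deviations rho lay between 0.657 and 0.874 (unadjusted permutation p of 0.0235 or less). Without the 2 libraries farthest from the median of the first gene of a pair, 5 of the 10 member pairs had r between 0.656 and 0.903, highest for S100a5 and Pcp4l1. The other 5, all 4 pairs of Kirrel3 and that of Kirrel2 and Lrrc3b, had r between 0.107 and 0.347 (permutation p of 0.34 or more).

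**Figure D4:**
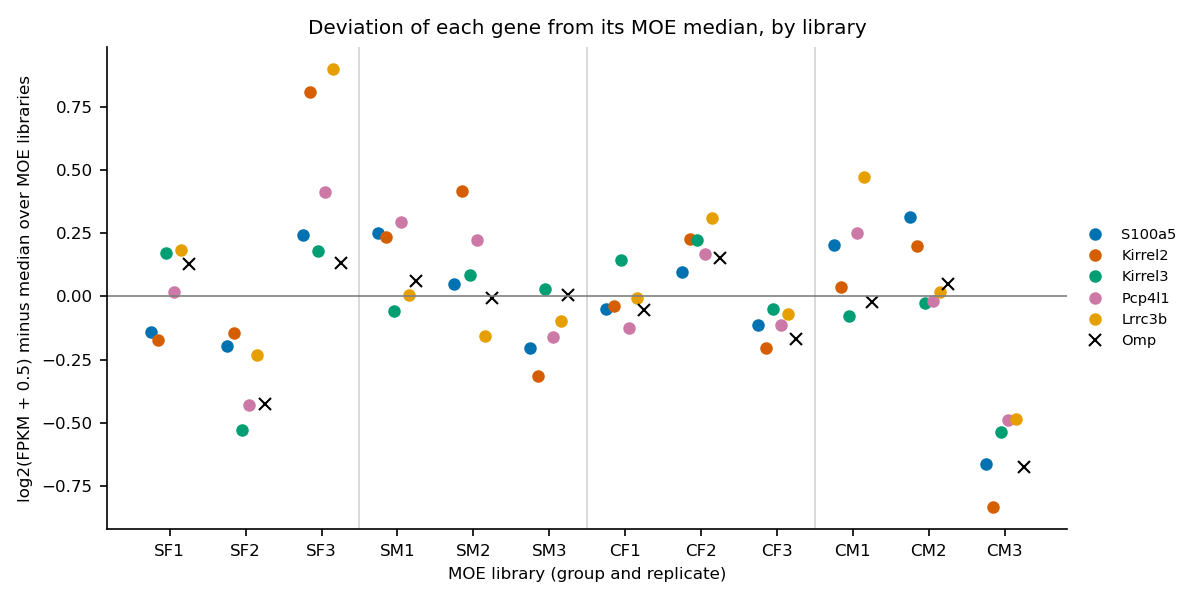
Difference of log2(FPKM + 0.5) from the median over the 12 MOE libraries, for the 5 genes (points) and Omp (crosses), by library; vertical lines part the groups SF, SM, CF and CM. CM library 3 is below 0 for all 6 genes, and in SF library 3 Lrrc3b and Kirrel2 stand highest.

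In OB, Pearson's r with Omp lay between 0.22 and 0.53 over the 12 libraries, and none passed (adjusted p of 0.219 or more over 5 relations, chosen after the levels had been seen). S100a5 had the highest (0.529, p = 0.078, rho 0.476). Without the 2 libraries farthest from the median of Omp its r was 0.168.

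The genes whose MOE pattern was most like each member's were ranked by Pearson's r over the 12 MOE libraries among 12092 other genes with a mean of at least 1 FPKM. For S100a5 they were Msrb2 (r = 0.959), Zdhhc16 (0.955) and Txnip (0.949). For Kirrel2 they were Kcnmb3 (0.957), Syt4 (0.946) and Serpinb1a (0.943), and for Kirrel3 they were Ttc9 (0.965), Amigo1 (0.959) and Pip4k2c (0.958). Pcp4l1 was followed by Crip2 (0.975) and Ubl3 (0.948), and Lrrc3b by Zfp184 (0.926), Erg28 (0.922) and Dusp14 (0.910). Omp came in place 49 for Kirrel3 and 731 for Pcp4l1, and between places 2142 and 2681 for S100a5, Kirrel2 and Lrrc3b. These values describe 12 libraries and carry no test.

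Kirrel3 is the only member with several listed transcripts, and the files divide its FPKM among them unevenly from library to library. NM_026324 held the highest share in 8 of the 12 MOE libraries and NM_001190911 in 3, while in VNO the counts were 4 and 8 and in OB 3 and 9. In MOE the share of NM_026324 ran from 0% to 100% of the gene, with a median of 80.1%. In OB the share of NM_001190911 ran from 21.2% to 100%, with a median of 59.9%. NM_001190913 was above 0 in 12 VNO libraries and in 0 OB libraries. The shares also differed between replicates of 1 group, and the summed level was used throughout.

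**Figure D5:**
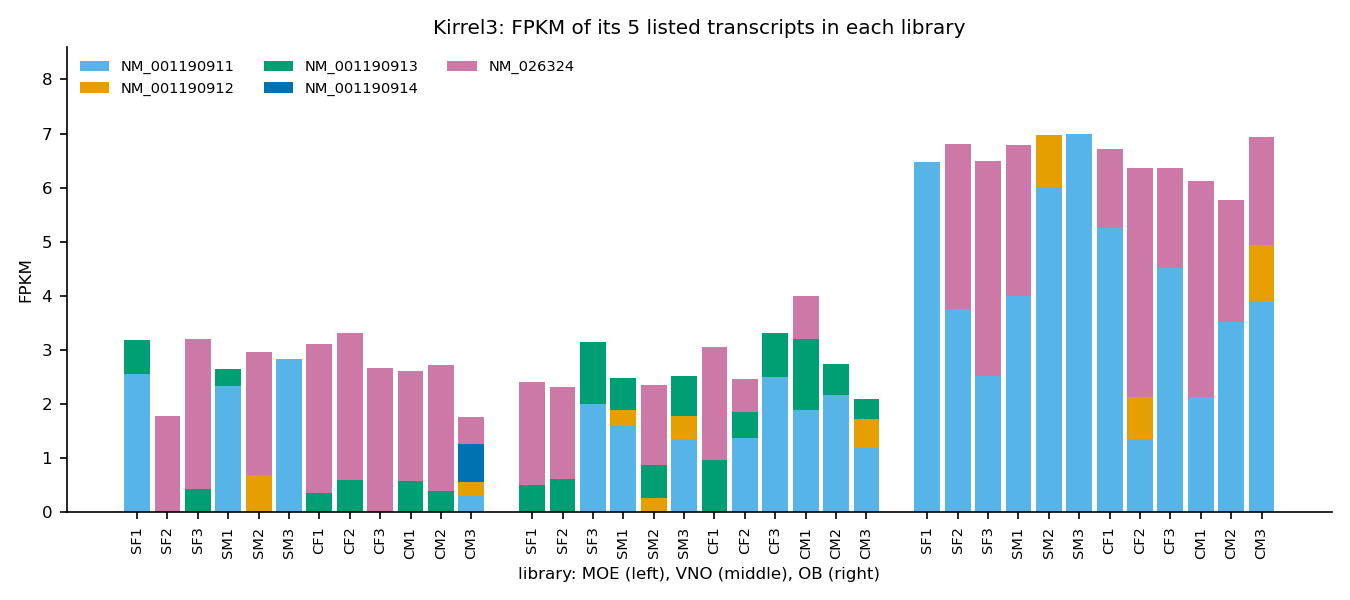
FPKM of the 5 listed transcripts of Kirrel3, stacked, in each of 36 libraries (MOE, VNO and OB from left to right). The summed height is between 5.76 and 6.99 FPKM in OB and at most 4.0 elsewhere, while the split between NM_026324 and NM_001190911 changes between replicates of 1 group.

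Other genes of the same pathway were read from lists that were drawn up with earlier results of these data known. The odor transduction list, from receptor trafficking (Rtp1, Rtp2) through the G protein and cyclase (Gnal, Ric8b, Adcy3) to the channels (Cnga2, Cnga4, Cngb1, Ano2), was higher in MOE than in VNO and than in OB for 15 of 15 genes. Of all genes, 48.6% were higher in MOE than in VNO and 45.7% than in OB. The median log2 difference of the list was 3.27 from VNO and 4.69 from OB, against 0.15 and 0.07 over all genes. Ric8b, which assists the folding of Gnal, exceeded VNO by 4.89, Adcy3 by 3.96, Gnal by 5.33 and Cnga4 by 4.04. S100a5, at 6.64, lay above all 4 of these, and Kirrel2, at 2.22, and Pcp4l1, at 1.0, lay below.

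Of 11 other OSN genes linked to activity or identity, 6 were higher and 4 lower in MOE than in VNO (48.6% and 34% of all genes). Against OB, 6 were higher and 5 lower in MOE (45.7% and 39.3% of all genes). H2bc21, an OSN histone variant also named Hist2h2be that is known to fall with activity, averaged 187 ± 33.0 FPKM in MOE, against 40.4 ± 4.81 in VNO and 6.62 ± 1.12 in OB, and was higher in MOE by 2.18 and 4.71 on the log2 scale (adjusted p = 4.98e-19 and 3.45e-28). Pcdh10, an adhesion molecule, was highest in OB, like Kirrel3, at 26.5 ± 2.52 FPKM, against 3.60 ± 1.33 in MOE and 1.23 ± 0.569 in VNO, a log2 difference of VNO from OB of -4.03.

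The immediate early genes, which turn on within minutes of activity in many neurons, ran against the odor transduction list. Of 13, 10 were lower and 1 higher in MOE than in VNO, where 34% of all genes were lower and 48.6% higher. Against OB, 11 were lower and 2 higher in MOE, where 39.3% of all genes were lower and 45.7% higher. Arc averaged 24.1 ± 4.09 FPKM in OB, against 0.451 ± 0.101 in MOE and 0.714 ± 0.127 in VNO. Egr1 averaged 7.51 ± 1.65 FPKM in OB, against 0.670 ± 0.191 in MOE and 2.56 ± 0.766 in VNO. Ier2 was higher in MOE than in VNO (13.1 ± 2.21 against 6.16 ± 0.860 FPKM). Of 13 genes that carry calcium and cAMP signals to the nucleus, 5 were higher and 7 lower in MOE than in VNO (48.6% and 34% of all genes). Camk2d was higher by 1.70 on the log2 scale.

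Within tissues, across the 18 comparisons, none of the other OSN genes, the odor transduction genes or the calcium and cAMP genes passed in limma. At an unadjusted p under 0.05 the odor transduction genes stood at 7 of 15 in VNO for SF against SM and at 7 of 15 for CF against SF, where 8.8% and 11% of all genes stood. The list's median log2 differences were -0.25 and 0.30, against -0.08 and 0.10 over all genes. The list holds Cnga2, and the part of OSN content in these counts was not tested. In VNO its genes stood at 6 of 15 for the interaction (5.26% of all genes) and 3 of 15 for housing (7.57%). In OB they stood at 5 of 12 for CF against CM (5.69%) and 3 of 12 for CF against SF (2.8%). The other 2 lists stood at no more than 3 genes in any comparison. Among the immediate early genes tested, 1 passed in 1 comparison, and 6 of 10 had an unadjusted p under 0.05 in VNO for each of SF against SM, CF against SF and the interaction. Egr1 in VNO read 2.16, 1.36 and 1.44 FPKM in the SF libraries, 3.48, 3.79 and 3.29 in SM, 2.82, 2.57 and 2.97 in CF, and 2.17, 2.03 and 2.67 in CM. The SF libraries lie below the SM libraries without overlap, and the difference was -0.92 ± 0.13 (adjusted p = 0.0290). It passed in 6 of 12 fits that left out 1 library and failed without SF library 2 or 3, any of the SM libraries, or CF library 1 (adjusted p between 0.0506 and 0.185), and it passed in 5 of 11 other alternatives.

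The paralogs of the members had tissue patterns of their own. Pcp4, the relative of Pcp4l1, averaged 0.661 ± 0.354 FPKM in MOE, against 84.0 ± 11.8 in VNO and 259 ± 29.0 in OB, so that Pcp4l1 exceeded Pcp4 in MOE while Pcp4 exceeded Pcp4l1 in VNO and OB by the means. Kirrel, the third gene of the Kirrel family, was highest in VNO, at 5.03 ± 0.593 FPKM, against 2.52 ± 0.373 in MOE and 0.526 ± 0.0795 in OB. S100a3, whose gene belongs to the same S100 family as S100a5, averaged 3.05 ± 0.924 FPKM in MOE, against 0.202 ± 0.103 in VNO and 0.395 ± 0.233 in OB, and S100b, a glial S100 gene, averaged 49.8 ± 4.72 FPKM in OB, against 18.2 ± 2.72 in MOE and 5.23 ± 1.16 in VNO. Of the 14 paralogs, 11 passed the filter over the 3 tissues. In MOE 4 were higher and 4 lower than in VNO (48.6% and 34% of all genes). Against OB, 7 were higher and 4 lower in MOE (45.7% and 39.3% of all genes). Within tissues none of the paralogs passed in limma in any of the 18 comparisons. At most 4 of 13 had an unadjusted p under 0.05 (CM against SM in MOE, where 6.94% of all genes stood).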

How the data were processed

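RNA-seq libraries of MOE, VNO and OB were analysed in 12 groups of 3. The authors made the deposited FPKM values: per the labels, total RNA depleted of ribosomal RNA was sequenced in pairs of 50 bases on 2 lanes, and the submitters' processing notes name TopHat2 2.1.0, Cufflinks 2.2.1.0, Cuffdiff and build mm9. FPKM divides by transcript length and library total, so a few abundant RNAs can shift all others, and Cufflinks shares fragments among transcripts. Accessions were matched to symbols for 99.7% of entries and FPKM summed per gene, leaving out genes with a failed entry. Fragments were estimated by squaring FPKM over its standard error, reading the confidence limits as 2 standard errors from FPKM, and cover counting error only.

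Tests between groups used lmFit and eBayes with trend from limma 3.58.1 (R 4.3.3) on log2(FPKM + 0.5) for genes with a mean of at least 0.5 FPKM, two-sided, with Benjamini-Hochberg adjustment over all genes. A fold change on this scale understates that of low genes. Each tissue was fitted over 12 libraries and 4 groups, and tissues over 36 libraries and 12 groups. The labels do not state that pools share no cage, and p-values measure the spread between pools. Correlations used two-sided permutation tests with 100000 resamples. The limma step was tested on simulated data. Python 3.11.15, numpy 2.4.6, pandas 2.3.3, scipy 1.17.1 and matplotlib 3.10.9 were used.

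The members and lists were chosen with earlier results of these data known. The genes named are the 5 members, per member the 3 genes of highest r in MOE, and up to 4 genes per list with the smallest p in a comparison. Of the genes this rule names, 2 are not reported here. Outside this rule, Omp, Cnga2, Trpc2 and Gad1 are named as markers, Egr1 for its call within VNO, and B230110C06Rik for its overlap. Alternatives were other pseudocounts (0.1 and 1), no filter, quantile normalization, upper quartile scaling and library weights. Others were covariates for estimated fragments and for neuron markers, a block for the replicate number, fits restricted to 6 libraries, and leaving out each library.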

Additional observations from a re-analysis of the deposited data

How the results depend on the processing

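Within tissues, none of the members passed in 395 of the 396 combinations of alternative setting and comparison. The exception was library weights (arrayWeights) in OB for CM against SM, under which 2 members passed, Kirrel3 and Lrrc3b. That fit leaned on SM library 3 (weight 6.20, other SM libraries at most 0.617) and CM library 2 (5.59, other CM libraries at most 0.857). The share of all genes that passed in that fit is not given here, so the count of 2 has no baseline. Between tissues, 4 or 5 members passed in each of the 126 combinations, and of 630 single differences, 625 kept their direction and their side of the threshold, 4 no longer passed (Pcp4l1 in MOE against OB, leaving out 1 library) and 1 newly passed (Kirrel3 in MOE against VNO, upper quartile scaling). No called difference changed sign. Of the 10 member pairs in MOE, 9 passed. The count was 0 under quantile normalization, 0 under upper quartile scaling and 5 for Spearman's rho, and it ran from 4 to 10 when 1 library was left out. What moves the pairs together under FPKM alone was not tested.

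Replicate numbers recur in every group, but same-numbered libraries did not deviate together. The median correlation of their deviations from group means was 0.026 for MOE, 0.079 for VNO and -0.004 for OB, with pairs from -0.14 to 0.27 over the 3 tissues, so the numbers were not taken to pair the libraries. The study took all 3 tissues from each mouse, but does not state whether same-numbered pools share mice. Between tissues, same-numbered libraries of a group had median correlations of 0.073 (MOE and VNO), 0.003 (MOE and OB) and -0.028 (VNO and OB). With the replicate number as a block, 0 members passed within tissues, and 4, 5 and 5 passed in MOE against VNO, MOE against OB and VNO against OB, as without it.

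With 3 pools per group, the 95% intervals of the members' differences between pairs of groups reached as far as -1.73 and 1.27 (S100a5 in VNO). Lrrc3b in VNO rests on 8 to 30 estimated fragments per library, Lrrc3b in OB on 32 to 70, and Kirrel2 in OB on 17 to 58. Groups of 3 libraries are too small for a test of single outlying libraries.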
